A study of Mus musculus with 2 samples.

Results

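Gfi1 and Trib1 are 2 mouse genes that lie on different chromosomes and encode regulators of blood cell fate. Open chromatin around them was described from peak lists of ATAC-seq, an assay that marks DNA a transposase can reach. A peak interval belonged to a gene when the nearest start site of any protein-coding gene, within 100 kb of its strongest summit, was a start site of that gene. This gave 33 intervals for Gfi1 and 57 for Trib1 among 127423 in the vehicle library, and 32 and 56 among 179414 in the TAMo library. Every interval within 1 kb of a start site of either gene was already included. Overlapping intervals of the 2 lists were joined, which left 35 regions at Gfi1 and 63 at Trib1 of 190617 in all. Both genes were chosen by the strength (−log10 q) and missing overlap of peaks called near them in 1 library only, so every contrast between the libraries is a description, without a test.

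The cells were OT-I CD8+ T cells, labelled wild type, whose transgenic receptor recognises a peptide of ovalbumin. In both cultures they were stimulated with that peptide (OVA257-264) for 48 h, either with vehicle or with TAMos. TAMos were CD11b+Ly6G-Ly6Chigh cells taken from the spleens of mice with LLC (Lewis lung carcinoma) tumours. About 50000 sorted CD8+ T cells went into each library, with 1 library per culture, so no difference has a replicate check.

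GFI1 is a zinc finger repressor of transcription. It recruits the histone demethylase KDM1A, the CoREST proteins and histone deacetylases, and it acts in haematopoietic stem cells, granulocytes and developing and activated T cells. TRIB1 is a pseudokinase of the Tribbles family. It has no efficient catalytic activity of its own and works as a scaffold that brings the ubiquitin ligase COP1 to C/EBP transcription factors, which are then degraded. It also binds the kinase MEK1.

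Gfi1 (ENSMUSG00000029275.18) lies on the minus strand at chr5:107716657-107726036 (mm10) and has 2 start sites in the GENCODE M21 basic set, here called upstream (107725805) and downstream (107724343). The sequences before these sites are shown because the highest coverage of the locus in both libraries fell on the first of them. They come from RefSeq (GRCm38.p6, the same assembly as mm10), read 5′ to 3′ on the minus strand. Capitals mark the 11 bases centred on a peak summit and, at the start of the first sequence, letters of a C/EBP motif. The first sequence is chr5:107725806-107725954, the 149 bases up to an exon of another Gfi1 transcript, and the second is chr5:107724344-107724593.
Gfi1 upstream start site: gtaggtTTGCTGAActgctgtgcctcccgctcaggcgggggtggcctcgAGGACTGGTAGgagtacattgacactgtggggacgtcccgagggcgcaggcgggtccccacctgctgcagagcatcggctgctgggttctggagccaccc
Gfi1 downstream start site: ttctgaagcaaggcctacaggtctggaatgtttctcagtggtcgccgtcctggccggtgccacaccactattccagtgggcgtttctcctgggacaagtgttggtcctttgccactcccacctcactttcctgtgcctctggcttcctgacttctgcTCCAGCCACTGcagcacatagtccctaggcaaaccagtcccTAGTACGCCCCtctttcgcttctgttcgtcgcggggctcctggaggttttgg

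In the first sequence the summits of both libraries fell on the same base, 95 bases before the start site. In the second they differed, at 47 bases before the start site in the vehicle library and 88 in the TAMo library. The 250 bases before each start site were searched on both strands for 11 motifs, and the share of 32851 RefSeq windows of that length with a match is given for each. One match was found, TTGCTGAA, for the C/EBP letters TTGCNNAA, which 9.56% of windows hold. Neither window had a match to AP-1 (TGANTCA, 6.75% of windows), RUNX (TGTGGT, 14%), ETS (GGAAGT, 19.7%) or NFAT (TGGAAA, 18.6%). The other motifs without a match were GFI1 (AAATCNC, 10.3%), IRF (GAAANNGAA, 7.13%), NF-kB (GGANTTTCC, 1.07%), T-box (GGTGTGA, 3.33%), TCF1 (ATCAAAG, 3.21%) and CTCF (1.28%). With a single match, no motif overlapped another. A missing match says only that these letters are not in the window. The start sites of Trib1 are named without sequence.

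Coverage at a summit was recovered in whole reads from the fold enrichment and −log10 p that the authors' peak caller gave. It was divided by the most frequent background coverage of its library, 4.71 reads for vehicle and 5.80 reads for TAMo. Ratios below are log2 of TAMo over vehicle on this scale, with 95% exact binomial (Clopper-Pearson) intervals that cover counting error only. The scale leaves out local background around a peak, so fold enrichment over local background can differ from these ratios. Reads are not independent molecules, and fewer cells with an open site cannot be told apart from less opening per cell. Over all 103844 shared regions, those with a peak in both lists, the median ratio was 0.28, so a region at 0 lay below the middle of the genome. Ratios were above 0 at 67.5% of these regions and below 0 at 32.5%, and counts of regions above 0 are therefore also given relative to that median. With a threshold of 2-fold, TAMo was higher at 21.9% of all shared regions and lower at 3.19%.

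The promoter of Gfi1 was open in both cultures. The strongest peak within 1 kb of a start site had 673 reads in vehicle and 1096 in TAMo, a log2 ratio of 0.40 (0.26 to 0.54). TAMo was thus the higher library there as scaled. Relative to the median of shared regions the ratio was 0.13 (−0.014 to 0.27), an interval that includes 0, and with the mean over summits in place of the highest it was 0.66. Over 13375 genes with a promoter ratio the median was 0.03, with quartiles of −0.13 and 0.23, and 85.2% of genes had a lower ratio than Gfi1. TAMo promoters were at least 2-fold higher at 4.01% of these genes and at least 2-fold lower at 0.867%. The summit lies in an intron of a longer Gfi1 transcript and in an exon of A430072P03Rik, a noncoding transcript of the opposite strand, and accessibility does not tell which transcript it belongs to.

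The regions beside this peak differed from it. The one 311 bp into the gene (chr5:107724739-107725679) had 644 reads in vehicle and 574 in TAMo, a ratio of −0.47 (−0.63 to −0.30), so it was lower in TAMo while its neighbour was higher. At the downstream start site the reads were 368 and 460, a ratio of 0.02 (−0.18 to 0.22). The 2 neighbouring Gfi1 start sites therefore had unlike ratios, with intervals that do not overlap.

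Near the other end of the gene, a region in the last exon and the intron before it was the sole shared Gfi1 region past 2-fold. It lies 6.09 kb from the nearer start site (chr5:107717623-107718372) and had 220 reads in vehicle against 98 in TAMo. Its log2 ratio was −1.47 (−1.83 to −1.12), lower in TAMo.

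Upstream of Gfi1, between it and Evi5, the 2 strongest one-library peaks of the locus lay side by side. At 8.82 kb (chr5:107734405-107734770) the vehicle library had 226 reads, and at 9.32 kb (chr5:107734980-107735270) it had 375 reads, with −log10 q values of 79.7 and 202. The TAMo list had no interval at either site. These peaks are what Gfi1 was chosen for. Strong one-library intervals made up 0.419% of the vehicle list and 1.51% of the TAMo list, and 0.154% of genes had at least 2 such vehicle intervals. The median gene had 3 vehicle intervals, against 33 at Gfi1, so that share of genes is not for genes of like peak number. The nearest TAMo summits were 2871 and 3378 bp away, and the lowest coverage at which the TAMo library called any summit with a local background within 10% of theirs was 80 reads. On the scaled level, the 375 reads of the vehicle peak were 5.78 times that lowest called coverage and the 226 reads were 3.48 times. Coverage below a call is not given in the lists, so these multiples are no fold changes. Between these sites and the gene, 5.70 kb from the start site, both libraries had strong peaks, with 627 reads in vehicle and 821 in TAMo (0.09, −0.07 to 0.24).

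The other shared upstream regions of Gfi1 had ratios from −0.17 to 0.90. At 18.1 kb upstream (chr5:107743732-107744177) vehicle had 83 reads and TAMo 191, a ratio of 0.90 (0.52 to 1.29) and the highest of the locus. In introns of Evi5, 23.8 to 51.8 kb upstream, 7 regions were shared, with ratios from −0.01 to 0.54, 2 above and 5 below the median of all shared regions. The strongest of these, 30.5 kb upstream (chr5:107755968-107756678), had 634 reads in vehicle and 857 in TAMo, a ratio of 0.13 (−0.02 to 0.28). It was the second highest TAMo coverage of the locus, after the promoter.

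Downstream of Gfi1, 14 regions between 9.65 and 53.4 kb overlapped or lay near the noncoding genes 4930428O21Rik and Gm26692. Of these 10 were shared, with ratios from −0.72 to 0.30. Of these, 5 were above 0 and 5 below, and relative to the median of all shared regions 1 was above and 9 below. The lowest lay in an intron of 4930428O21Rik, 23.3 kb downstream, with 123 reads in vehicle and 92 in TAMo (−0.72, −1.13 to −0.32). The farthest strong one, 47.0 kb downstream, was level in reads, with 521 and 526 (−0.29, −0.47 to −0.11).

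**Figure D1:**
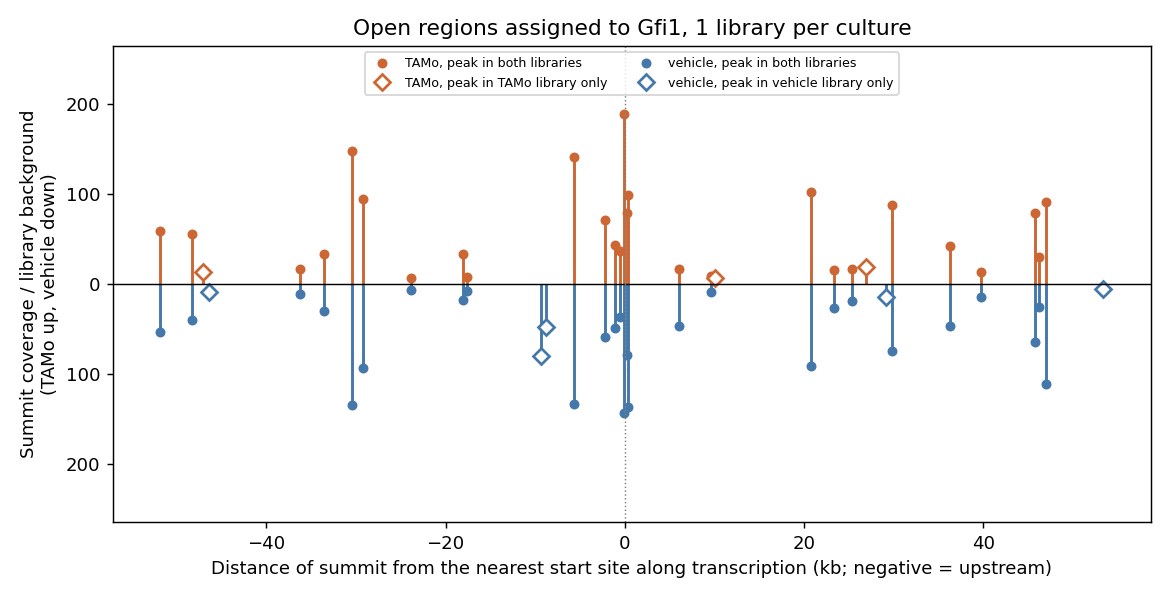
Summit coverage divided by library background for the 35 Gfi1 regions (y axis, TAMo upwards and vehicle downwards) against distance in kb from the nearest Gfi1 start site, negative upstream. Circles are regions with a peak in both libraries and open diamonds are peaks of 1 library; the 2 vehicle diamonds at 8.82 and 9.32 kb upstream have no TAMo counterpart, which the other strong regions have.

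Trib1 (ENSMUSG00000032501.9) lies on the plus strand of chromosome 15 (chr15:59648350-59657099), with start sites at 59648350 and 59648653. Its promoter was open in both cultures, with 598 reads in vehicle and 794 in TAMo. The log2 ratio was 0.11 (−0.05 to 0.26), which is above 0 as scaled. Relative to the median of shared regions it was −0.17 (−0.32 to −0.013), an interval wholly below 0. A region 1.85 kb upstream had 643 and 774 reads (−0.03, −0.19 to 0.12). As scaled, the intervals of the promoter and of this region both included 0.

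Within the gene body the regions went both ways. In an intron 2.30 kb from the start site (chr15:59650822-59651097) vehicle had 344 reads and TAMo 689, a ratio of 0.70 (0.51 to 0.89). In the 3′ untranslated region of the shorter transcript, which is intron in the longer one, the order was the opposite. At 4.35 kb (chr15:59652852-59653195) the reads were 474 and 364 (−0.68, −0.88 to −0.48), and at 4.71 kb they were 259 and 176 (−0.86, −1.14 to −0.58).

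Upstream of Trib1 the regions within introns of Nsmce2, which encodes a SUMO ligase, included peaks of both libraries, of 1 library only and shared ones. Of 22 regions there, 47.5 to 99.5 kb from Trib1, 15 were shared, 4 were vehicle-only and 3 TAMo-only. All 15 shared regions had a ratio above 0, where 67.5% of all shared regions did, with a median of 0.66 and a range from 0.14 to 2.54. This direction belongs to the library-wide scale, as local background also rose in TAMo. Fold enrichment over local background was 11.8 in vehicle and 11.1 in TAMo at 63.1 kb, and 4.32 and 4.69 at 99.2 kb. It rose more at 95.8 kb (2.60 and 7.27) and at 51.5 kb (3.51 and 7.10). Relative to the median of all shared regions 12 were above and 3, at 50.5, 49.3 and 48.2 kb, below. TAMo was at least 2-fold higher at 5 of the 15, where 21.9% of all were. The highest ratio, 95.8 kb upstream (chr15:59552431-59552719), came from 26 reads in vehicle and 186 in TAMo (2.54, 1.94 to 3.19). Close by, 93.3 kb upstream, the reads were 80 and 272 (1.46, 1.10 to 1.84), and at 99.2 kb they were 35 and 115 (1.41). A strong region 51.5 kb upstream (chr15:59596209-59597071) had 256 reads in vehicle and 730 in TAMo (1.21, 1.00 to 1.42). The strongest TAMo peak near Trib1, 63.1 kb upstream (chr15:59585120-59585438), had 856 reads against 501 in vehicle, a smaller ratio of 0.47 (0.31 to 0.63).

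The same stretch held 1 strong peak of the vehicle library only, 47.5 kb upstream (chr15:59600614-59600973, 221 reads). It ranked 47558 among vehicle intervals by −log10 q and was thus just inside the 50000 strongest. Its vehicle coverage was 2.08 times the lowest that TAMo called at a like background. Among the weaker intervals at 83.9 to 99.5 kb, TAMo peaks of 91 and 133 reads and vehicle peaks of 28 and 21 reads lacked a counterpart. Regions at 99.2, 95.8 and 93.3 kb in the same stretch were shared. On the scaled level these TAMo peaks were 4.61 and 5.68 times the lowest coverage that vehicle called at a like background. The vehicle peaks were 1.05 and 0.602 times the lowest that TAMo called, near or below its limit, so their absence from the TAMo list shows no difference.

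Between Nsmce2 and Trib1, 8 shared regions had ratios from −0.59 to 1.31, 4 above 0 and 4 below, or 3 above and 5 below the median of all shared regions. The highest lay 23.4 kb upstream, with 38 reads in vehicle and 116 in TAMo (1.31, 0.77 to 1.88). A strong region at an exon of the lincRNA Gm36677, 29.8 kb upstream, had 488 and 562 reads (−0.10, −0.28 to 0.08).

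Downstream of Trib1 the one gene annotated within the assigned stretch was the pseudogene Gm20150, and the regions are described in 2 stretches, split at 75 kb after the values were seen. From 13.4 to 70.9 kb, 10 of 11 shared regions had a ratio above 0, where 67.5% of all did. This near-uniform direction was lost relative to the median of all shared regions, with 6 above and 5 below. TAMo was at least 2-fold higher at 3 of the 11, where 21.9% of all were. At 53.6 kb (chr15:59701929-59702442) vehicle had 100 reads and TAMo 431 (1.81, 1.49 to 2.13). At 61.4 kb (chr15:59709926-59710275) they had 173 and 683 (1.68, 1.44 to 1.93), whereas a peak at 59.2 kb, in between, had 511 and 684 (0.12, −0.05 to 0.29). The first and last of these were 3.49-fold and 3.20-fold higher in TAMo, and the interval of the middle one included 0.

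From 77.4 to 97.8 kb downstream, 6 of 7 shared regions had a ratio below 0, and below the median of all shared regions, where 32.5% of all were below 0. Fold enrichment over local background was split among these 6. It was higher in TAMo at 79.8 kb (10.1 in vehicle, 11.5 in TAMo), 80.3 kb (2.80, 3.38) and 90.8 kb (9.58, 10.7). It was lower in TAMo at 77.4 kb (8.68, 7.90), 89.1 kb (8.83, 7.41) and 97.8 kb (11.3, 4.41). The strongest vehicle peak of the locus, at 79.8 kb (chr15:59728064-59728829), had 722 reads against 677 in TAMo (−0.40, −0.55 to −0.24). At 89.1 kb the reads were 646 and 545 (−0.55, −0.71 to −0.38). The farthest region, at 97.8 kb (chr15:59746165-59746597), had 101 reads in vehicle and 29 in TAMo, a ratio of −2.10 (−2.75 to −1.49) and the one Trib1 region at least 2-fold lower. The exception was at 84.6 kb, with 168 and 336 reads (0.70, 0.43 to 0.97).

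In this stretch each library also had a strong peak that the other lacked. The vehicle library had 462 reads at 82.6 kb (chr15:59731107-59731477) and the TAMo library had 513 reads at 85.9 kb (chr15:59734441-59734721). Their −log10 q values were 226 and 255. The nearest summits of the other library lay 1948 and 1372 bp away. On the scaled level the vehicle peak was 5.04 times the lowest coverage that TAMo called at a like background, and the TAMo peak was 3.59 times the lowest that vehicle called. Trib1 was chosen for these peaks. Over all genes, 0.438% had strong peaks of both kinds, 1.99% had a strong vehicle-only peak and 9.22% a strong TAMo-only peak. The median gene had 3 vehicle and 5 TAMo intervals, against 57 and 56 at Trib1, so these shares are not for genes of like peak number.

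**Figure D2:**
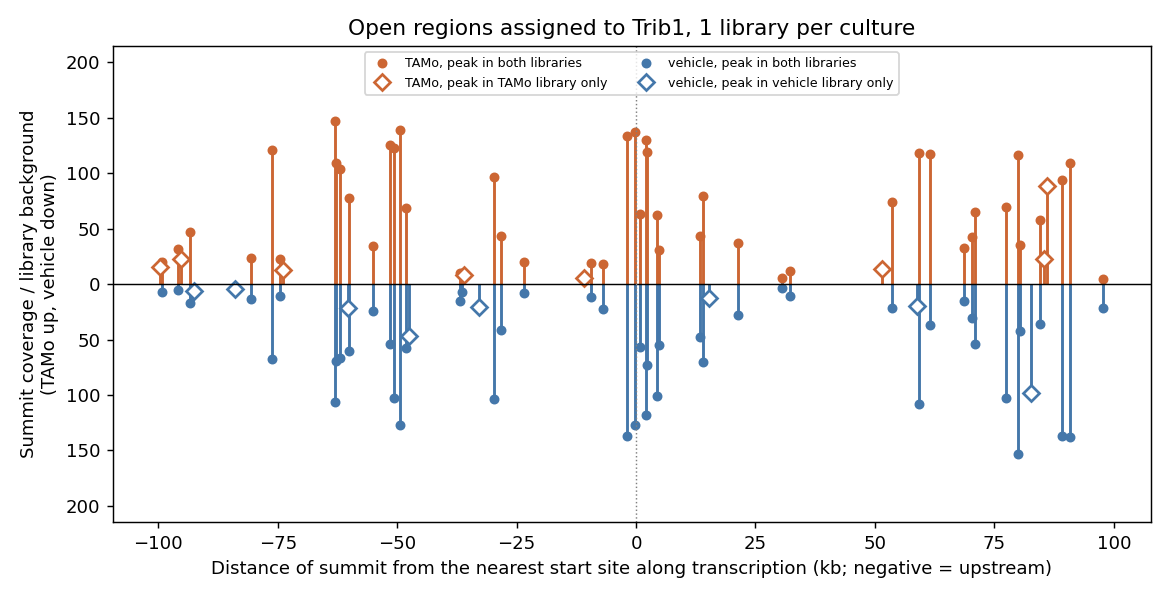
Summit coverage divided by library background for the 63 Trib1 regions (y axis, TAMo upwards and vehicle downwards) against distance in kb from the nearest Trib1 start site, negative upstream, with circles for shared regions and open diamonds for peaks of 1 library. In the Nsmce2 introns the TAMo stem is the taller one at all 15 shared regions, while 4 regions have a vehicle stem only, and 6 of 7 shared regions beyond 75 kb downstream have the lower scaled coverage in TAMo.

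**Figure D3:**
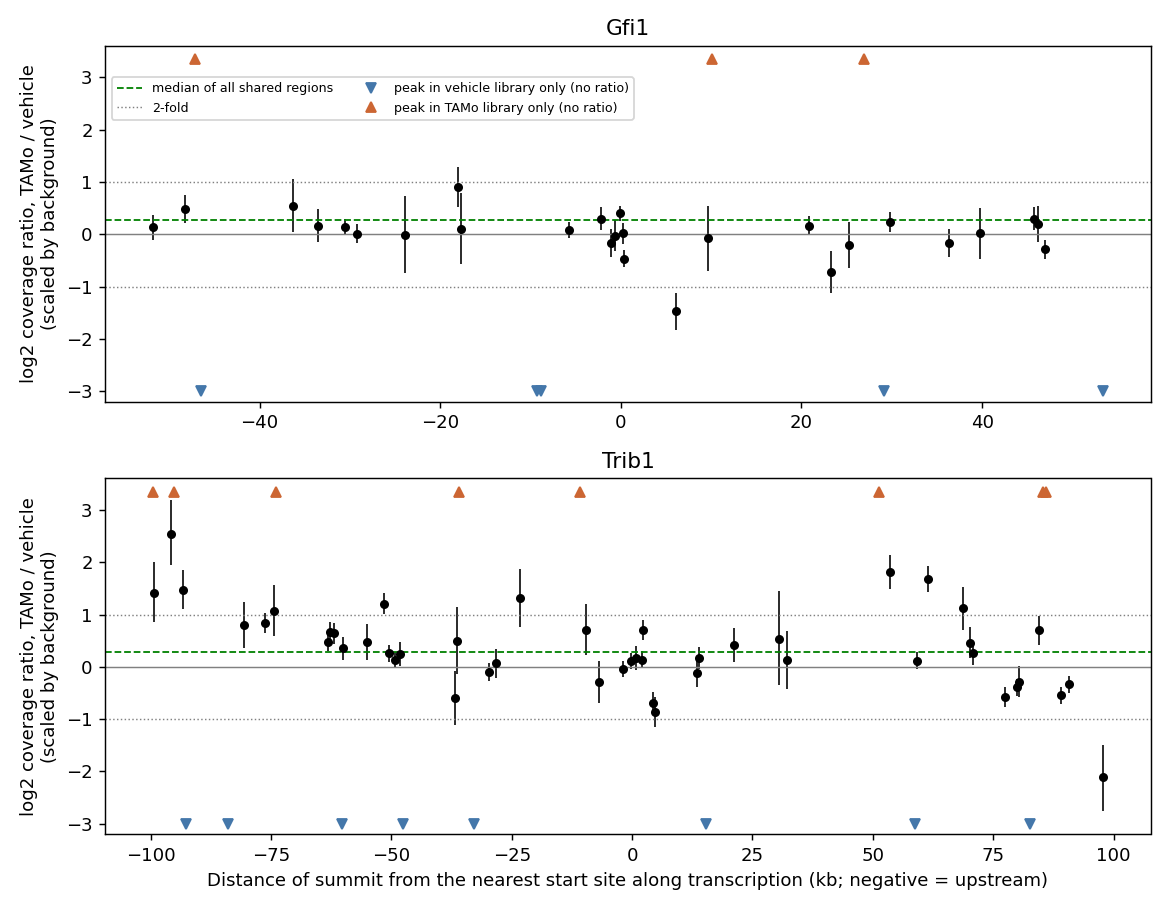
Log2 coverage ratio of TAMo over vehicle for each shared region (points, with 95% exact binomial intervals) against distance in kb from the start site, for the 27 shared regions of Gfi1 and the 47 of Trib1; triangles mark peaks of 1 library, which have no ratio. Gfi1 points lie between −1.47 and 0.90 and Trib1 points between −2.10 and 2.54.

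The ratios of all shared regions of each gene are set beside those of the genome here. The median ratio over 27 shared Gfi1 regions was 0.09, with quartiles of −0.12 and 0.22, and 0 of 27 were at least 2-fold higher in TAMo, where 21.9% of all shared regions were. One was at least 2-fold lower, where 3.19% of all were. For Trib1 the median over 47 shared regions was 0.26, with quartiles of −0.07 and 0.71, and for the genome these were 0.28, −0.12 and 0.89. TAMo was at least 2-fold higher at 9 of 47 and at least 2-fold lower at 1. These counts depend on the settings: with start sites within 50 kb they were 1 and 0, relative to the median of all shared regions 6 and 2, and with the TAMo list shortened to the vehicle number 9 and 0. Away from promoters, 25.4% of all shared regions were at least 2-fold higher in TAMo and 3.65% lower. The rule that chose the genes used this contrast, so nothing is read from these shares. Relative to the median of all shared regions, the Gfi1 median was lower by 0.19 and the Trib1 median by 0.01.

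Most shared Gfi1 and Trib1 regions were among the stronger ones of the genome. A mean scaled coverage at or above the genome's median of 22.4 was found at 20 Gfi1 and 35 Trib1 shared regions. Among all regions of that strength 20.2% were at least 2-fold higher in TAMo, against 0 of 20 at Gfi1 and 5 of 35 at Trib1, and 2.8% were lower, against 1 of 20 and 0 of 35. Among the weaker regions 23.7% were higher, against 0 of 7 and 4 of 12, and 3.58% were lower, against 0 of 7 and 1 of 12. This division by strength was added after the values were seen.

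**Figure D4:**
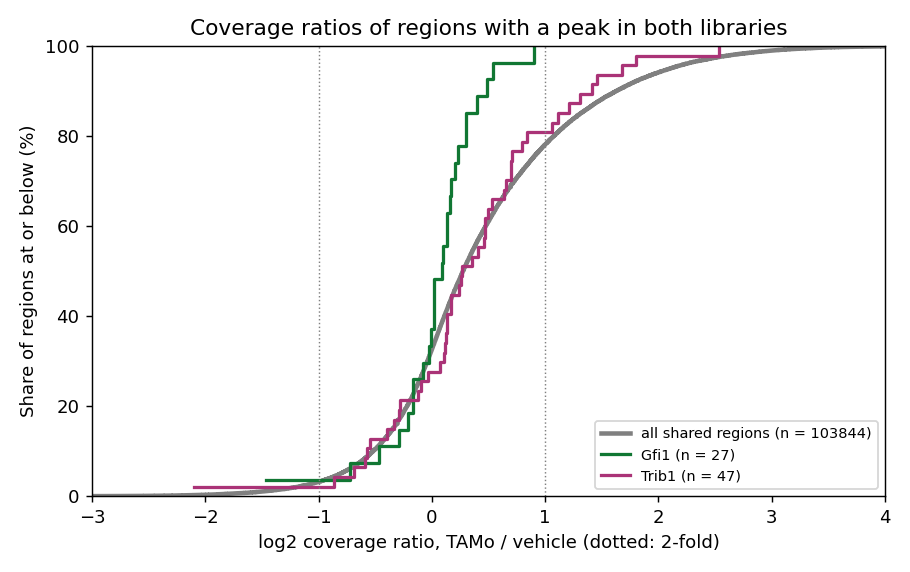
Share of shared regions (y axis, percent) at or below each log2 ratio of TAMo over vehicle (x axis) for all 103844 regions, the 27 of Gfi1 and the 47 of Trib1, with dotted lines at 2-fold. The Gfi1 line ends at 0.90 and the Trib1 line at 2.54, with medians of 0.09 and 0.26 against 0.28 for all regions.

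Peak numbers of the libraries were nearly equal at both genes, while the TAMo list was 1.41 times as long. With 33 and 32 intervals the log2 ratio of numbers was −0.04 at Gfi1, and with 57 and 56 it was −0.03 at Trib1. Among 6077 genes with at least 10 regions the median was 0.44, with quartiles of 0.20 and 0.74, and 13.2% had no more TAMo than vehicle intervals. Intervals with no overlap in the other list made up 5 of 33 vehicle and 3 of 32 TAMo intervals at Gfi1, and 8 of 57 and 8 of 56 at Trib1. Over the whole lists these shares were 12.5% of vehicle and 39.5% of TAMo intervals. Both genes are rich in peaks, with more vehicle intervals than 99.0% of genes for Gfi1 and 99.9% for Trib1.

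Beyond the 100 kb limit the next upstream peaks of Trib1 had 228 reads in vehicle and 246 in TAMo, at 104 and 102 kb, against 35 and 91 reads just inside. On the downstream side the next peaks had 28 and 29 reads, at 100087 and 100047 bp, against 101 and 29 reads just inside. At Gfi1, where neighbouring genes and not the 100 kb limit set the borders, the peaks just within 1 kb of a start site had 174 and 211 reads and those just outside had 231 and 254.

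Neighbouring genes had their own values. Glmn and Rpap2, 126 and 127 kb beyond Gfi1, share a promoter peak with a ratio of −0.02 (−0.24 to 0.20). On the other side the promoter of Evi5, a GTPase-activating protein gene that spans part of the upstream region of Gfi1, had 47 reads in vehicle and 139 in TAMo (1.26, 0.78 to 1.77), and that of Rpl5, a ribosomal protein gene, had a ratio of 0.31 (0.08 to 0.53). The promoter shared by Nsmce2 and Washc5, 274 kb from Trib1, had 268 and 378 reads (0.19, −0.04 to 0.42), and that of Sqle, a cholesterol synthesis gene, had a ratio of 0.15 (0.02 to 0.28). Fam84b had a ratio of −0.02. No overlapping promoter peaks were found at 1700028K03Rik, Ube2d2b, 4933412E24Rik and A1bg. Medians over the shared regions assigned to a neighbour could differ from its promoter ratio. Beside Trib1 they were 0.72 for Nsmce2, 0.89 for Sqle and 0.75 for 4933412E24Rik, higher still for Washc5, and −0.14 for Fam84b. Beside Gfi1 they were 0.73 for Rpl5, 0.58 for Ube2d2b, 0.05 for 1700028K03Rik, −0.02 for Glmn and −0.11 for Evi5. Whether the raised ratios in the Nsmce2 introns belong to a wider stretch was not tested.

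The genes with the most similar profile were found by the distance over 3 values, the log2 ratio of peak numbers, the promoter ratio and the median ratio of shared distal regions, each divided by its SD over 5274 genes. The 2 libraries are the sole samples behind each value. The nearest to Gfi1 were Asph (distance 0.15), Dhx9 (0.18) and Pip4p2 (0.20), and the nearest to Trib1 were Nfe2l1 (0.06), Slmap (0.07) and Ptpn22 (0.09). Asph had 29 vehicle and 28 TAMo intervals with a promoter ratio of 0.44, and Ptpn22, a phosphatase gene of T cell receptor signalling, had 11 and 11 with a promoter ratio of 0.08.

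Genes whose products work with GFI1 had a median promoter ratio near 0, with single genes from −0.53 to 0.37. Of 15 listed genes, 13 had overlapping promoter peaks, with a median ratio of −0.04 against 0.03 over all genes, and 0 were past 2-fold in either direction (backgrounds 4.01% higher and 0.867% lower). Intervals lay wholly below 0 for 4 of them and wholly above 0 for 2, against 17.7% and 26.6% of all genes. The values over all genes, here and for the gene lists below, rest on a wider set. They include genes whose strongest promoter peaks in the 2 libraries do not overlap, while such genes of the lists have no ratio. The 4 were the histone methyltransferase gene Ehmt2 (219 and 187 reads, −0.53, −0.82 to −0.24), the CoREST genes Rcor2 (−0.38) and Rcor1 (−0.18), and the deacetylase gene Hdac1 (805 and 809 reads, −0.30, −0.44 to −0.15). Kdm1a, the demethylase that GFI1 recruits, had 286 and 318 reads (−0.15, −0.38 to 0.09). The 2 above 0 were Ajuba, a LIM protein that binds GFI1 (0.37, 0.05 to 0.70), and the corepressor gene Sin3a (1300 and 1736 reads, 0.11, 0.010 to 0.22). The paralogue Gfi1b had its strongest promoter peaks at different sites in the libraries and has no ratio, and Runx1t1 had no promoter peak.

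Among 21 genes reported as GFI1 targets, 15 had a ratio, with a median of 0.15 against 0.03 over all genes. Past 2-fold were 0, where 4.01% of all genes were higher and 0.867% lower. Intervals lay wholly above 0 for 7 of the 15 and wholly below 0 for 3, against 26.6% and 17.7% of all genes. Cdkn1a, which encodes the cell cycle inhibitor p21, was just under 2-fold higher in TAMo (377 and 926 reads, 0.99, 0.82 to 1.17). Bax, a gene of a pro-apoptotic BCL2 family member, had 198 and 445 reads (0.87, 0.62 to 1.11), and Spi1, the gene of the myeloid factor PU.1, had 25 and 57 reads (0.89, 0.18 to 1.63). The lowest was Il7r, the gene of the interleukin-7 receptor (458 and 301 reads, −0.91, −1.12 to −0.70). Irf8 (−0.20) and Socs3 (−0.17) also had intervals below 0. Csf1r and Hoxa9 had a promoter peak in the TAMo library only, with 100 and 63 reads, and Elane, Cebpe and Itgae had none in either. Over the whole TAMo list, 39.5% of intervals had no overlap in the vehicle list.

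In the Tribbles pathway 15 of 17 listed genes had a ratio, with a median of 0.06 against 0.03 over all genes. Past 2-fold were 0, where 4.01% of all genes were higher and 0.867% lower. Intervals lay wholly above 0 for 3 of the 15 and wholly below 0 for 2, against 26.6% and 17.7% of all genes. The paralogues Trib2 (0.05, −0.09 to 0.20) and Trib3 (0.07, −0.10 to 0.23) and the ubiquitin ligase gene Cop1 (−0.02, −0.19 to 0.14) lay near 0. The C/EBP genes with a ratio ranged from Cebpa at 0.11 (−0.13 to 0.36) to Cebpd at 0.55 (177 and 320 reads, 0.28 to 0.83), with Cebpg at 0.31. Map2k1, the gene of MEK1, had 601 and 851 reads (0.20, 0.05 to 0.35). The lowest were Akt1 (−0.29) and Cul4a (−0.20), a scaffold of the ubiquitin ligase.

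**Figure D5:**
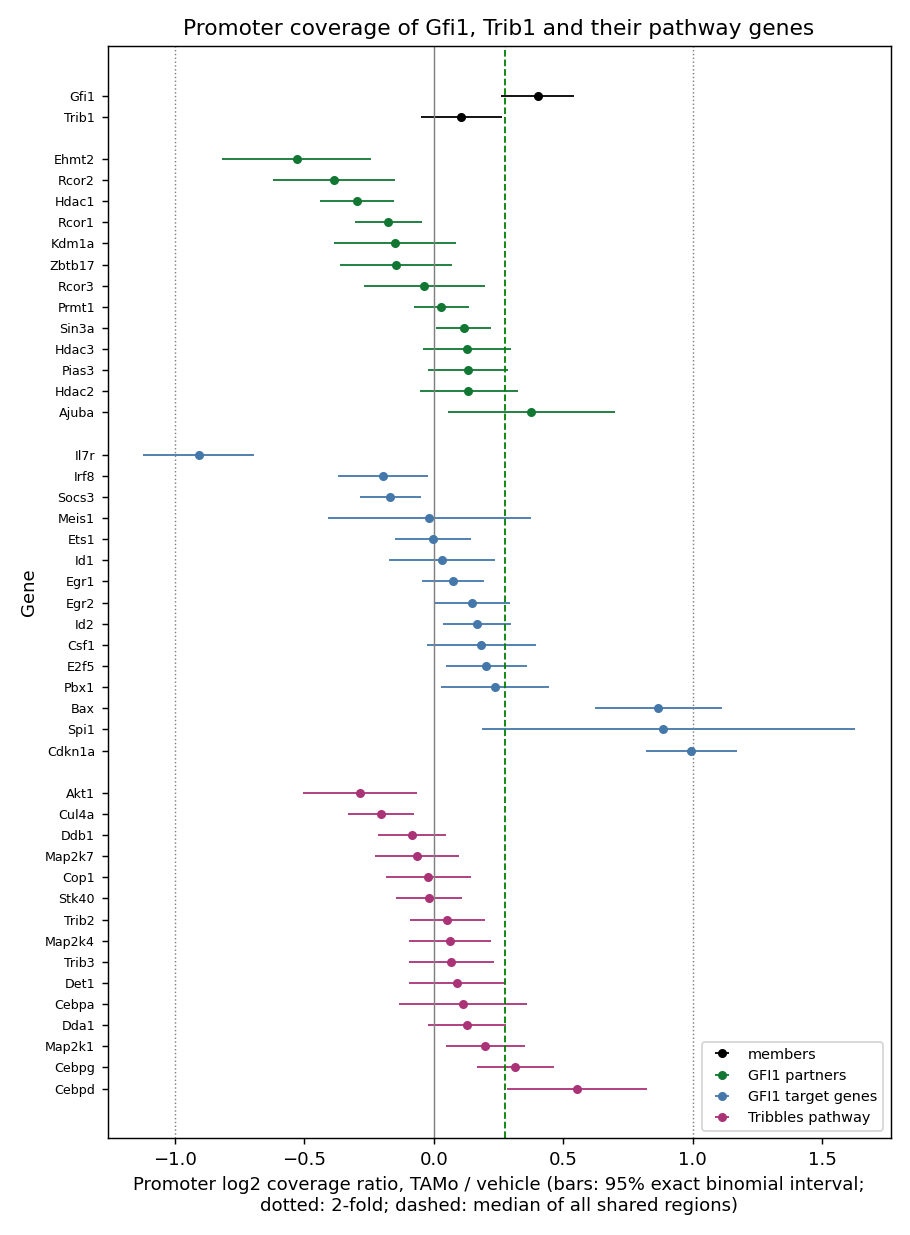
Promoter log2 coverage ratio of TAMo over vehicle (x axis, bars are 95% exact binomial intervals) for Gfi1, Trib1 and those genes of the GFI1 partner, GFI1 target and Tribbles lists that had overlapping promoter peaks (y axis). The points lie between −0.91 (Il7r) and 0.99 (Cdkn1a), none of them past 2-fold.

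The sorted cells carried the chromatin of CD8 T cells, and promoter signal of some myeloid markers, whose sum was larger in the TAMo library. All 10 T cell markers had promoter peaks in both libraries, with a summed scaled coverage of 1044 in vehicle and 1044 in TAMo. Single markers went both ways under these equal sums. The 9 with a ratio ranged from −0.75 (Thy1) to 0.45 (Cd8b1), with a median of −0.055. Intervals lay wholly below 0 for 4 of the 9 and wholly above 0 for 2, against 17.7% and 26.6% of all genes. Of 12 myeloid markers, 3 had a promoter peak in vehicle and 5 in TAMo, with sums of 39.1 and 124. Over the whole lists, 12.5% of vehicle and 39.5% of TAMo intervals had no overlap in the other list. The share of all genes with a promoter peak in each library was not computed, so nothing is read from the numbers of markers with a peak. Most of the TAMo sum came from Cd14 (411 reads), Itgam (118 reads) and Csf1r (100 reads). The 2 with a ratio were Cd14 (141 and 411 reads, 1.24, 0.96 to 1.53), past 2-fold, and Spi1 (0.89, 0.18 to 1.63). Over all genes 4.01% were at least 2-fold higher, and 26.6% had an interval wholly above 0. Fcgr1 went the other way, with a promoter peak of 18 reads in vehicle and none in TAMo, and 22 against 18 intervals. Ly6c2, Lyz2, S100a8, S100a9, Ccr2 and Mpo had no promoter peak in either library. Of 6 B cell markers, 3 and 4 had one, with sums of 84.4 and 76.7. Of the 3 with a ratio, Ms4a1 was past 2-fold (26 and 65 reads, 1.02), where 4.01% of all genes were at least 2-fold higher. Gfi1 and Trib1 are both used in myeloid cells too, and the part of such cells in the values above was not tested.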

How the data were processed

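ATAC-seq libraries of sorted CD8+ T cells were read as 150 bp pairs, per the labels' protocols. Trimmomatic 0.36, Bowtie2, MACS2 and the build mm10 are named in the submitters' processing notes. The sources used here do not give settings, read shifting or duplicate removal. The authors deposited 1 peak list per library, not pooled. Its columns are intervals, summit positions, a fold enrichment (ratio) over local background, −log10 p and −log10 q values, and a score that was not used further and that restates the −log10 q, per the deposited values.

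MACS2's formulas were assumed, with a fold of (coverage + 1)/(background + 1) and a Poisson tail for p. Solved together they gave whole reads, matched within 1% of the step between neighbouring coverages, for all but 32 of 163215 vehicle rows and 48 of 225656 TAMo rows. Median summit coverage was 81 and 93 reads. The solver was also run on values simulated with the same formulas from coverage it had already recovered. This checks the solving only and cannot check the assumed formulas. Rows of the same interval were 1 peak, and overlap of at least 1 bp made intervals shared. Strong one-library peaks were among the 50000 strongest of a list by −log10 q, which reached down to 41.5 in vehicle and 98.6 in TAMo. Start sites came from GENCODE M21 (basic set, 20780 autosomal protein-coding genes). Peak numbers were compared as log2((TAMo + 0.5)/(vehicle + 0.5)). Called means past 2-fold. No p-value was computed, as each group had 1 library. The genes, gene lists and named genes were chosen with earlier results of these data known. The rule for names took both genes with their regions, the 3 nearest neighbours on each side, the 3 most similar genes, and pathway list genes past 2-fold or up to 4 more with the largest departures. Regions not given singly are covered by ranges and counts. Kdm1a, Sin3a, paralogues, markers and other list genes were named after their values were seen. Motifs around summits, which were planned, could not be searched, so promoter windows were used in their place. Python 3.11.15, scipy 1.17.1 and pandas 2.3.3 were used.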

Additional observations from a re-analysis of the deposited data

How the results depend on the processing

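No paired analysis was possible because each culture had 1 library. Of 73 values recomputed under 9 alternatives, 59 stayed within their interval or within 1.5 times their count, and 14 moved. A change of sign was looked for only in main ratios past 2-fold, and no main ratio was, so none could be found. Signs of smaller values did change. Centring on all shared regions changed them for both medians and the Trib1 promoter ratio, and promoters of 2 kb for the Trib1 promoter ratio. With −log10 q of at least 10 the Trib1 ratio of peak numbers went from −0.03 to 0.17. Centring on all shared regions moved the promoter ratios to 0.13 (Gfi1) and −0.17 (Trib1), the medians of shared regions to −0.19 and −0.012, and the Trib1 regions at least 2-fold lower to 2. A mean over summits moved the Gfi1 promoter ratio to 0.66, and promoters of 2 kb gave −0.035 for Trib1, within its interval. With start sites within 50 kb, Trib1 had 1 region at least 2-fold higher and 0 lower, and the strong one-library peaks of both genes numbered 3, of which 0 were TAMo-only, instead of 5 and 1. With the 20000 strongest intervals there were 2, all vehicle-only (2), and 0 TAMo-only. With the TAMo list shortened to the vehicle number, 0 Trib1 regions were at least 2-fold lower. With a shorter window or list fewer regions enter, and centring on all shared regions subtracts 0.28 from every ratio. The Gfi1 promoter peak has 2 summits in vehicle (673 and 454 reads) and 1 in TAMo (1096 reads), so the mean lowers the vehicle value only. The motif search with 50 bases on each side of a summit was not run. The lists give no coverage where no peak was called, and with 1 library per culture the spread between cultures is unknown.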
